A study of Rattus norvegicus with 6 samples.

Results

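The 10 genes described here encode the machinery that prepares peptides for major histocompatibility complex (MHC) class I: B2m, Tap1, Tap2, Tapbp, Psmb8, Psmb9, Psmb10, Psme1, Psme2 and Nlrc5. They were taken by symbol from tables of 21857 genes, and all 10 symbols were found. RNA-seq counts came from 6 libraries of fibroblasts cultured from the hearts of newborn rats no older than 3 days (NRCFs, a primary culture). In 3 libraries, labelled WT, the cells had received the empty plasmid (Vector), and in 3, labelled FTO overexpression, a pcDNA plasmid carrying rat FTO, an RNA demethylase that erases N6-methyladenosine. The strain is given as Noway in the sample labels and as Sprague-Dawley in the series description. Plasmid delivery was common to both groups, no group of cells without a plasmid was sequenced, and the labels do not say whether the replicates were separate cultures, so the p-values measure the spread between these libraries.

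Nearly every nucleated cell shows samples of its own proteins on class I molecules. The proteasome cuts proteins into peptides, the TAP transporter moves the peptides into the endoplasmic reticulum, tapasin (Tapbp) holds the empty class I molecule next to TAP, and B2m, the invariant light chain, completes the molecule that travels to the surface. In cells exposed to interferon or TNF, the inducible subunits Psmb8, Psmb9 and Psmb10 take the places of the constitutive catalytic subunits Psmb5, Psmb6 and Psmb7, the PA28 cap made of Psme1 and Psme2 docks on the core, and Nlrc5 switches on class I genes in the nucleus. Fibroblasts carry this machinery at a low basal level.

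To show what these genes share in sequence, the RefSeq promoter windows of the rat genome build GRCr8 were read, each with 250 bases before and 50 bases after the annotated start site. A window was found for 9 of the 10 genes, all but Nlrc5. They were searched for the interferon-stimulated response element (ISRE, searched as GAAANNGAAA and on the other strand as TTTCNNTTTC) and for the gamma-activated site (GAS, searched as TTCNNNGAA, which reads the same on both strands). The ISRE letters were in 7 of the 9 windows and in 3.92% of all 33469 windows. GAS letters were in 1 of the 9 (Psmb8) and in 8.87% of all windows. The windows of B2m, Tap1, Psmb10 and Psme2 are shown, from the light chain, the transporter, the inducible core and the cap, with the ISRE matches in capitals:
B2m, chr3:129549080-129549379, plus strand: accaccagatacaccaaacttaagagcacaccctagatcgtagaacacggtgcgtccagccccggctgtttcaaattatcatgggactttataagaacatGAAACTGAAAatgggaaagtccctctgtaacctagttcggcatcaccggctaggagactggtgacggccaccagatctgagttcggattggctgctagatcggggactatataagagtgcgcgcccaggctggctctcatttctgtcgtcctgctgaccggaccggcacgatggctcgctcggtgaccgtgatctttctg
Tap1, chr20:4668494-4668793, minus strand: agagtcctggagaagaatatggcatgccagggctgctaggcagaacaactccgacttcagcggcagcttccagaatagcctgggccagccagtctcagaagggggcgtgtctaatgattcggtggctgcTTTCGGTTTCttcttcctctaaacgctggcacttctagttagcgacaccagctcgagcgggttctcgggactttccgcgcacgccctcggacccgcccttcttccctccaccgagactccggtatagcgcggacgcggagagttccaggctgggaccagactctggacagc
Psmb10, chr19:50743243-50743542, minus strand: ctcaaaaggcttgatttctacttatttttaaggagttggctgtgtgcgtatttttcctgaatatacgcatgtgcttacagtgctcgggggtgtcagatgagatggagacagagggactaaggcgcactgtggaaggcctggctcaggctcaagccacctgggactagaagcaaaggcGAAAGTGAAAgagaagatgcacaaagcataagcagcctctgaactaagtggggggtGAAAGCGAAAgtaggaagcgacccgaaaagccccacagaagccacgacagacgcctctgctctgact
Psme2, chr15:33052702-33053001, minus strand: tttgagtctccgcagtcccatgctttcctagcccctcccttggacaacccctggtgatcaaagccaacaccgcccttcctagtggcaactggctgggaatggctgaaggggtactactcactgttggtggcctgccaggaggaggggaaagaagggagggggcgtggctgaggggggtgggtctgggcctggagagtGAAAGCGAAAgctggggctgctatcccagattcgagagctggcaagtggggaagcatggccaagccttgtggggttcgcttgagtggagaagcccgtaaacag
In B2m the match began 150 bases before the start site and in Tap1 121 bases before it. Psmb10 held 2 separate matches, beginning 73 and 17 bases before the start site, and Tapbp held 2 that overlapped. No match to either motif was found in the windows of Psmb9 and Psme1. Tap2, Psmb8, Tap1 and Psmb9 follow one another in the class II part of the rat MHC with 0 other protein-coding genes between neighbours in that build. Tap1 and Psmb9 are transcribed away from each other from start sites 457 bases apart, so their windows share 44 bases. The match of Tap1 lies between these start sites but outside the shared bases, so it is not in the window of Psmb9. A match cut by the edge of a window would not be found. The window of Psme1 ends in tttcgctt, the start of the searched TTTCNNTTTC, so the search could not decide there. Among the 13 constitutive 20S core genes with a window, the ISRE letters were in 2 (Psma4 and Psmb3), and Psmb5, Psmb6 and Psmb7 were not among them. Among 33 windows of class I heavy chain genes, they were in 3 (RT1-N3, RT1-S2 and RT1-S3). That list was taken by symbol in GRCr8 and differs from the 24 heavy chain genes counted below. A match is a run of letters and not a measured binding site.

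**Figure D1:**
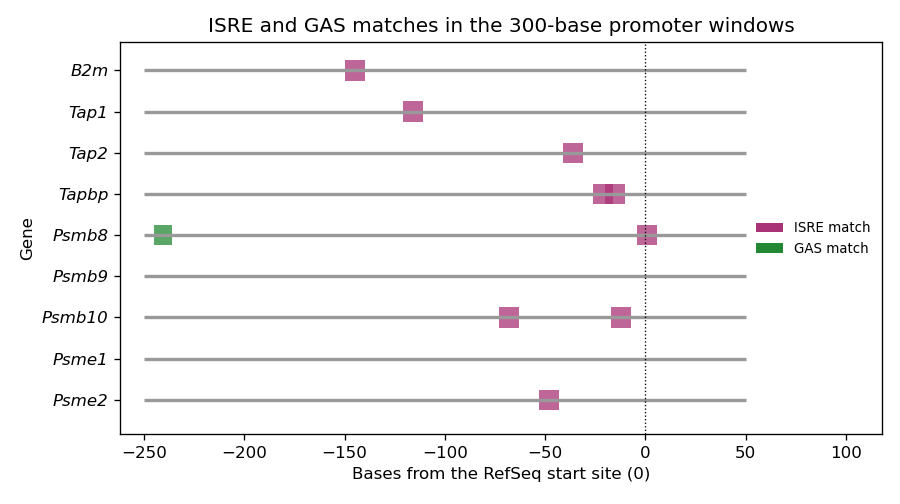
Positions of ISRE and GAS matches in the promoter windows of 9 genes. The x axis gives bases from the RefSeq start site at 0, each grey line is 1 window of 300 bases, and coloured boxes are matches on either strand. Of the 9 windows, 7 hold an ISRE match and 1 (Psmb8) a GAS match.

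The libraries held 13178952 to 17857999 counts. Values are CPM, the count of a gene scaled to a common library total, after TMM normalization between libraries, and 3 counts, taken as the floor, were worth 0.167 to 0.226 CPM. Fto itself was at 87.3 to 89.6 CPM in Vector and at 90.7 to 93.2 CPM in the libraries labelled FTO. The difference of 0.06 (SE 0.0468) on the log2 scale did not pass (edgeR adjusted p-value 0.239), although the groups did not overlap, and the 95% interval of the fold change was 0.976 to 1.12. Directions below are therefore those of the libraries labelled FTO against Vector. All 8 fibroblast markers were detected in both groups, and 4 rose while 4 fell. The collagen gene Col1a1 fell from 25792 ± 336 to 8262 ± 377 CPM, and Dcn, which encodes the matrix proteoglycan decorin, rose from 47.0 ± 1.57 to 5607 ± 220 CPM. The markers of B, T, NK or dendritic cells summed to at most 0.366 CPM in any library. Between the groups 65.9% of 12941 tested genes passed the quasi-likelihood test of edgeR (adjusted p-value under 0.05), 33.2% upward and 32.8% downward, so a call alone is common in these data.

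Class I processing and immunoproteasome genes were higher in the libraries labelled FTO. Of the 10 genes, 8 had enough counts to be tested, and 8 rose, against 33.2% of all tested genes. These 8 also passed the threshold of the study (log2 fold change of at least 1 with an unadjusted p-value under 0.05), as did 10.4% of all tested genes in that direction. In each of the 8, every library labelled FTO lay above every Vector library, which was so for 35.5% of tested genes. Their log2 fold changes ran from 1.83 (Tapbp) to 3.50 (Nlrc5) with a median of 2.29, where the median of all tested genes was 0.00. In glmTreat of edgeR, which asks for a rise beyond 2-fold and was added after the data were seen, all 8 passed with adjusted p-values up to 7.8e-06 (Psme2), as did 7.87% of tested genes.

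**Figure D2:**
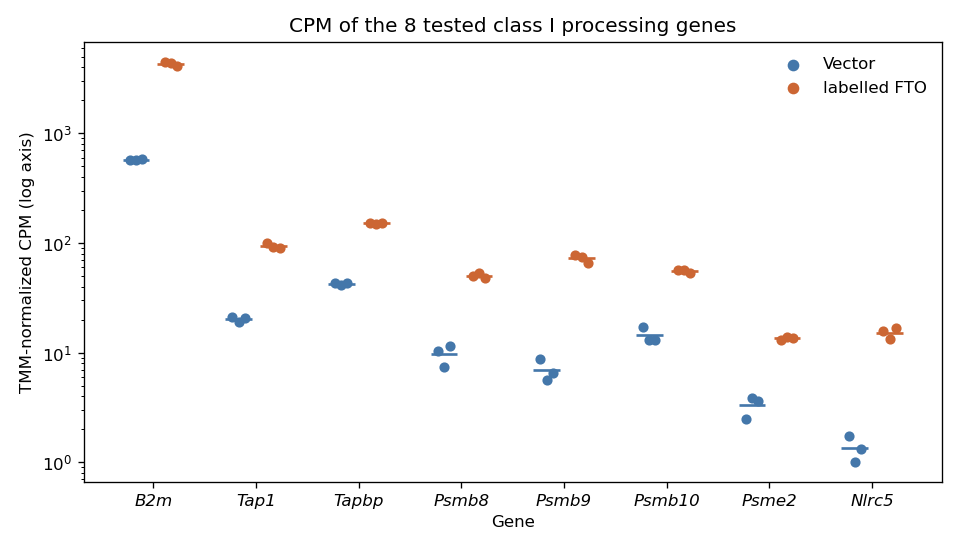
TMM-normalized CPM (log axis) of the 8 tested genes in each library. Points are libraries, blue for Vector and orange for the libraries labelled FTO, and horizontal lines are group means. For each of the 8 genes the 3 orange points lie above the 3 blue points.

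B2m, the light chain shared by all classical class I molecules, was at 574, 564 and 580 CPM in Vector and at 4421, 4350 and 4087 CPM in the libraries labelled FTO. The groups were far apart and each was tight. The means were 573 ± 8.11 and 4286 ± 176 CPM (SD, 3 libraries each), a 7.48-fold rise (95% interval 7.02 to 7.98) or 2.90 on the log2 scale (SE 0.0431, edgeR adjusted p-value 4.4e-17). With 7850 to 8412 counts in each Vector library, B2m had the smallest SE of the 8 tested.

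In sum, the heavy chains that B2m binds rose with it. In the rat they are the RT1 class I genes, whose near-identical copies can exchange reads, so the single genes are uncertain and their sum is the firmer value. Summed over 24 RT1 class I genes, the level was 271, 277 and 267 CPM in Vector and 1927, 1901 and 1848 CPM in the libraries labelled FTO, 6.97-fold higher between the means. An exact two-sided permutation test over the libraries gave a p-value of 0.1, the smallest that 3 against 3 can give. Of 20 heavy chain genes tested, 19 rose, against 33.2% of all tested genes, and 0 fell. Their median log2 fold change was 2.50. Some passed the filter on low counts only through the libraries labelled FTO, so a rise was favoured in advance. Among these were RT1-CE3, RT1-CE6, RT1-M6-1 and RT1-S2. RT1-M2, with 6, 10 and 6 counts in Vector and 0 in each library labelled FTO, failed that filter and was not tested. The classical genes RT1-A1 and RT1-A2 rose 7.37-fold and 10.7-fold, to 251 ± 8.06 and 493 ± 14.1 CPM. RT1-T24-3 rose most, by 6.16 on the log2 scale (SE 0.121), from 1.02 ± 0.265 to 73.8 ± 3.71 CPM. RT1-CE6 had at most 2 counts in any Vector library and was at least 11.1-fold higher over the floor. RT1-M6-2 did not pass, at 2.06 ± 0.306 CPM in Vector and 1.27 ± 0.504 CPM in the libraries labelled FTO (edgeR adjusted p-value 0.0543). It passed, downward, without FTO replicate 2 (0.0265) or FTO replicate 3 (0.0483).

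B2m also pairs with class I-like proteins that do not all present peptides. Of 4 tested, 3 rose, against 33.2% of all tested genes. Hfe, a regulator of iron uptake, rose 2.96-fold. Mr1, which presents microbial vitamin metabolites, rose 2.70-fold and Cd1d1, which presents lipids, 1.85-fold. Fcgrt, the neonatal Fc receptor, was at 136.4 ± 2.884 and 138.9 ± 7.999 CPM (edgeR adjusted p-value 0.679), and the 95% interval of its fold change was 0.945 to 1.09.

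Among the transport genes, Tap1 could be measured and Tap2 could not. Tap1, one half-transporter of the TAP pair, was at 21.1, 18.8 and 20.5 CPM in Vector and at 100.3, 91.3 and 89.2 CPM in the libraries labelled FTO. It rose 4.64-fold (95% interval 4.19 to 5.15), or 2.22 on the log2 scale (SE 0.0694, edgeR adjusted p-value 2.8e-13). Its partner Tap2 had 5, 0 and 2 counts in Vector and 5, 13 and 8 counts in the libraries labelled FTO, which overlap, and it failed the filter on low counts. TAP works as a pair of both proteins, and the counts of Tap2 are too few to compare it with Tap1. Tested without the filter, Tap2 passed at an adjusted p-value of 0.0379 in edgeR.

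Tapbp, the bridge between TAP and the empty class I molecule, rose least of the 8 tested. It was at 42.8, 41.0 and 42.8 CPM in Vector and at 152, 147 and 152 CPM in the libraries labelled FTO. This was a rise of 3.57-fold (95% interval 3.31 to 3.84, edgeR adjusted p-value 4.8e-14). Tapbp had 2.03 to 2.17 times the counts of Tap1 in the same library in Vector and 1.52 to 1.70 times in the libraries labelled FTO, ranges that do not overlap.

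The other genes of peptide loading and trimming moved less and both ways. Of 10 tested, 5 rose, 3 fell and 2 did not pass, where 33.2% of all tested genes rose and 32.8% fell. The median log2 fold change of the list was 0.18. Tapbpl, the tapasin relative TAPBPR that edits peptides, had the largest rise, from 21.9 ± 0.380 to 58.4 ± 3.17 CPM, 2.66-fold. Erap1, which trims peptides in the endoplasmic reticulum, rose 1.53-fold. The general chaperones of the loading complex changed little, Calr 1.205-fold and Pdia3 1.19-fold higher. Canx was at 1186 ± 12.3 and 1186 ± 44.9 CPM and did not pass (adjusted p-value 0.986 in edgeR). Lap3, a cytosolic aminopeptidase, had the largest fall, to 0.743 of its Vector level.

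The 3 inducible catalytic subunits of the proteasome all rose, by unequal amounts. Psmb9, which replaces Psmb6, was at 8.77, 5.63 and 6.51 CPM in Vector and at 77.2, 74.3 and 65.2 CPM in the libraries labelled FTO. It rose 10.4-fold (95% interval 8.76 to 12.3), or 3.38 on the log2 scale (SE 0.115, edgeR adjusted p-value 8.1e-13). Psmb8, which replaces Psmb5, was at 10.3, 7.44 and 11.6 CPM in Vector and at 49.98, 53.2 and 47.7 CPM in the libraries labelled FTO. Its rise was 5.15-fold (95% interval 4.36 to 6.08, edgeR adjusted p-value 4.6e-11). Psmb10, which replaces Psmb7, was at 17.2, 12.9 and 13.1 CPM in Vector and at 57.0, 56.5 and 53.4 CPM in the libraries labelled FTO. It rose 3.86-fold (95% interval 3.37 to 4.43, edgeR adjusted p-value 4.3e-11). Vector libraries of Psmb8 and Psmb9 rested on 84 to 167 counts each, and their spread was wide for their level.

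The constitutive partners rose less or did not pass. Psmb5 was at 110 ± 6.12 CPM in Vector and 119 ± 7.72 CPM in the libraries labelled FTO, and the groups overlapped (edgeR adjusted p-value 0.113, and 0.0149 without FTO replicate 3, where its log2 fold change was 0.15). Psmb6 rose 1.31-fold and Psmb7 1.53-fold. Psmb6 was listed at only 10.7 ± 0.894 CPM in Vector, the lowest of the 14 constitutive 20S core genes, against 50.2 ± 4.37 CPM for Psmb7. Ratios of counts within a library need no scaling between libraries, and on the log2 scale the ratio Psmb8/Psmb5 went from -3.51 ± 0.249 to -1.24 ± 0.0194, a difference of 2.27. For Psmb9/Psmb6 the log2 ratio went from -0.63 ± 0.256 to 2.36 ± 0.0927, a difference of 2.99. For Psmb10/Psmb7 it went from -1.81 ± 0.353 to -0.47 ± 0.0555, a difference of 1.34. As ratios of inducible to constitutive mRNA these were 4.83-fold, 7.95-fold and 2.53-fold differences. The groups did not overlap in any of the 3 ratios, and each exact two-sided permutation test gave a p-value of 0.1, also 0.1 after Benjamini-Hochberg adjustment over the 3. The counts are not corrected for transcript length, so only the change of a ratio can be read and not the share of either subunit.

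**Figure D3:**
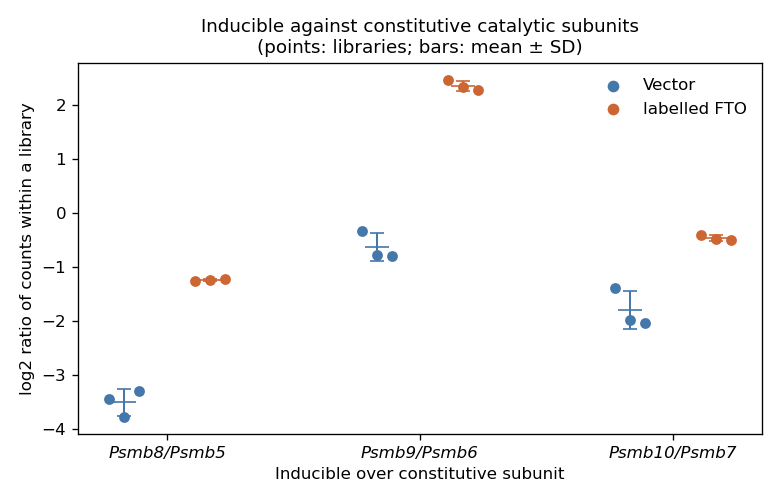
log2 ratio of the counts of each inducible catalytic subunit to those of the constitutive subunit it replaces, within each library. Points are libraries, bars are mean ± SD of 3, blue for Vector and orange for the libraries labelled FTO. The ratio was higher in the 3 libraries labelled FTO in all 3 pairs, most for Psmb9/Psmb6, with a difference of 2.99.

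The rest of the constitutive proteasome rose by a smaller and more even amount. Of the 14 genes of the constitutive 20S core, 13 rose, against 33.2% of all tested genes, and 0 fell. Their log2 fold changes ran from 0.11 (Psmb5) to 0.90 (Psma6) with a median of 0.45. None of these 14 reached a log2 fold change of 1. Of 21 genes listed with the 19S regulator, the cap that unfolds ubiquitin-tagged proteins, 18 rose, against 33.2% of all tested genes, and 0 fell. Their median was 0.33. Psmd10 rose most of the list, by 1.15, from only 3.96 ± 0.611 CPM in Vector. Psmd14, the deubiquitinase of that cap, was uneven in the libraries labelled FTO, with 266, 135 and 1866 counts against 1090 to 1379 in Vector, and did not pass (edgeR adjusted p-value 0.115). Without FTO replicate 3 its log2 fold change was -2.57, with an adjusted p-value of 3.3e-12 in edgeR.

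**Figure D4:**
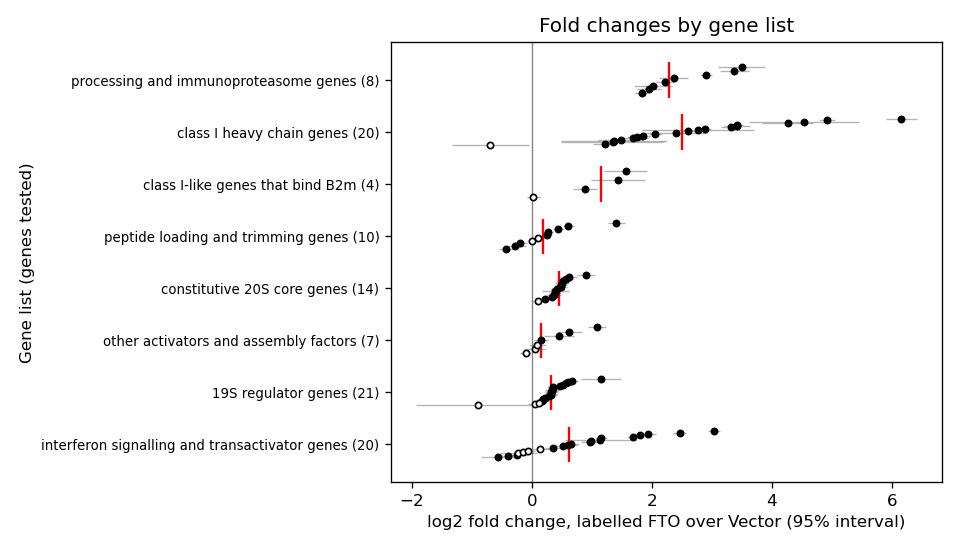
Difference between the groups on the log2 scale, labelled FTO over Vector, for each tested gene, with its 95% interval, in the processing and immunoproteasome genes and in 7 related lists. Filled points passed an adjusted p-value of 0.05, open points did not, and red lines are list medians, 2.29 for the processing and immunoproteasome genes, 2.50 for the heavy chains and 0.45 for the constitutive 20S core.

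The 2 PA28 genes could not be compared with each other. Psme2 was at 2.49, 3.89 and 3.60 CPM in Vector and at 13.04, 13.9 and 13.7 CPM in the libraries labelled FTO, with no overlap. It rose 4.05-fold (95% interval 3.25 to 5.04, edgeR adjusted p-value 9.8e-09), from only 34 to 58 counts in each Vector library. Psme1, the other PA28 subunit, was listed at 0 in the 3 Vector libraries and at 3, 0 and 6 counts in the libraries labelled FTO, and failed the filter. Tested without it, Psme1 passed at an adjusted p-value of 0.0264 in edgeR, on those counts. Such low listings were also found for genes that most cells use, Pomp, a proteasome assembly factor, with 5 to 13 counts, Lnpep, an aminopeptidase, with 0 to 8, and Rfxap, a subunit of the RFX complex on MHC promoters, at 0 in all 6 libraries. A count at or near 0 in this table is therefore not read as a silent gene. Psme3, which forms the nuclear cap that does not depend on interferon, rose 1.11-fold, from 59.1 ± 0.735 to 65.7 ± 2.36 CPM (edgeR adjusted p-value 0.0233), and did not pass without FTO replicate 1, without FTO replicate 2 or without any one of the Vector libraries (0.0532 to 0.0827). The within-library ratio Psme2/Psme3 was 0.0568 ± 0.0122 in Vector and 0.207 ± 0.0102 in the libraries labelled FTO. Psmf1, an inhibitor of the core, rose 2.13-fold.

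Nlrc5, the transactivator of class I genes, rose most of the 8 tested. It was at 1.75, 1.01 and 1.31 CPM in Vector, which is 15 to 24 counts a library, and at 15.6, 13.4 and 16.6 CPM in the libraries labelled FTO. The rise was 11.3-fold, and the low counts leave a wide 95% interval of 8.64 to 14.7, at 3.50 on the log2 scale (SE 0.180, edgeR adjusted p-value 1.3e-10). Ciita, the relative of Nlrc5 that drives class II genes, had 4, 13 and 8 counts in Vector and 3, 0 and 5 in the libraries labelled FTO, and was not tested. Of the 12 genes of the class II list, 2 could be tested. Cd74, the class II invariant chain, rose from 0.211 ± 0.0792 to 0.818 ± 0.0318 CPM. This is 2 to 4 counts a library in Vector and 11 to 14 in the libraries labelled FTO. Cd74 passed the filter on low counts only through the latter. Ctss, a lysosomal protease also abundant in macrophages, fell from 95.7 ± 3.99 to 22.6 ± 1.26 CPM. No class II RT1 gene on the list had more than 6 counts in any library.

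Ordered by log2 fold change, the genes ran Nlrc5 (3.50), Psmb9 (3.38), B2m (2.90), Psmb8 (2.36), Tap1 (2.22), Psme2 (2.02), Psmb10 (1.95) and Tapbp (1.83). Neighbours in this order were compared by their count ratio within each library, 7 ratios in all. The order came from the same counts, so the direction of each ratio was set in advance. In 5 of them the groups overlapped, so Nlrc5 was not separated from Psmb9, nor Psmb8, Tap1, Psme2, Psmb10 and Tapbp each from the next. By ranges alone, B2m lay apart from both its neighbours, with no overlap of the groups. The difference was 0.49 in the log2 ratio Psmb9/B2m and 0.52 in B2m/Psmb8. Each had an exact two-sided permutation p-value of 0.1, and 0.35 when adjusted over the 7. As 0.1 is the smallest that 3 against 3 libraries can give, neither could pass.

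For the head-to-head neighbours Tap1 and Psmb9 the ratio of counts also shifted between the groups. Psmb9 had 0.300 to 0.416 times the counts of Tap1 in Vector and 0.731 to 0.814 times in the libraries labelled FTO, a 2.26-fold difference with no overlap. Psmb8, on the other side of Tap1, had 0.396 to 0.565 and 0.498 to 0.583 times its counts, and those ranges overlap. Within the inducible core, Psmb9 over Psmb8 went from 0.725 ± 0.147 to 1.44 ± 0.0953. These ratios, with Tapbp/Tap1, Psme2/Psme3, B2m/Tap1 and Psmb8/Psmb10, are 7 that were chosen after the values were seen. The smallest adjusted p-value among them was 0.14 in exact two-sided permutation tests, so none passed.

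Genes of interferon signalling and of the factors on class I promoters were examined as the upstream part of the pathway. Of 20 tested, 13 rose, 3 fell and 4 did not pass, where 33.2% of all tested genes rose and 32.8% fell. The median log2 fold change of the list was 0.62. Jak2, a kinase of the interferon-gamma receptor, had the largest rise, 8.24-fold, from 98.1 ± 3.61 to 808 ± 29.2 CPM. Stat2 rose 5.51-fold, Irf9 3.83-fold and Ifngr1 3.49-fold. Irf1, which binds ISRE elements of class I and immunoproteasome genes, rose 1.96-fold. Rfx5, the DNA-binding subunit of the RFX complex, rose 1.43-fold, and Creb1 had the largest fall, to 0.681 of its Vector level. Ifng and Ifnb1 were listed at 0 in all 6 libraries.

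The genes whose pattern over the 6 libraries was most like that of Tap1, by root mean square difference of centred log2 CPM, were RGD1560455 (0.0560), Sp100 (0.0640), Ginm1 (0.0679), Olr1 (0.0691) and Samd9l (0.0745). Those closest to Nlrc5 were Mgat3 (0.126), Birc3 (0.129), Ndnf (0.154), Fam26e (0.158) and LOC684828 (0.158). With 2 groups of 3 libraries this mostly orders genes by the size of their group difference.

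Markers of other cell types moved between the groups too, where 33.2% of all tested genes rose and 32.8% fell. Macrophages are among the cells that express immunoproteasome subunits. Of 9 macrophage markers tested, 8 fell and 1, Adgre1, rose, and the summed level went from 689 to 710 CPM in Vector to 200 to 225 CPM in the libraries labelled FTO. The macrophage receptor Csf1r went from 142 ± 2.30 to 9.17 ± 1.29 CPM. Endothelial markers rose in 4 of 5 cases, from a sum of 24.5 to 25 CPM to one of 52.9 to 55.8 CPM, and cardiomyocyte markers rose in 5 of 6 while Tnnt2 fell, with sums of 1033 to 1052 and 1314 to 1370 CPM. Vwf was not tested. In these bulk samples fewer cells of a type and less RNA per cell cannot be told apart, and the part of these cells in the class I results was not tested.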

How the data were processed

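The deposited files, 1 per library, hold unnormalized counts by gene symbol, and per the labels the submitters' processing notes name Trimmomatic and the genome build rn6. Which aligner, counting program, annotation and strand setting were used is not given in the sources used here, so counts of overlapping, antisense and near-identical genes are uncertain. Libraries were made with a NEBNext Ultra RNA kit per the labels.

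Groups came from the genotype labels. Genes were kept with filterByExpr of edgeR (minimum count 10), which left 12941 of 21857, and 4691 symbols had no count. Libraries were scaled by TMM (factors 0.995 to 1.01) and compared by the two-sided quasi-likelihood test of edgeR 4.0.16 in R 4.3.3, with Benjamini-Hochberg adjustment over all tested genes. The SE of a log2 fold change is its size divided by the root of F. Within-library ratios used counts plus 0.5 and an exact permutation test. Replicate libraries differed by more than sampling noise (chi-square per degree of freedom 1.58 to 8.38). The alternatives were DESeq2 1.42.0, limma-voom 3.58.1, other scalings and filters, a replicate block, glmTreat and the omission of single libraries. The fit was also run on simulated data in which far fewer genes changed than here. That run does not test scaling or error control where 65.9% of tested genes passed. The floor covers counting error only, and the sources name no molecular identifiers. Promoter windows are from RefSeq (GRCr8), and no coordinates were converted between builds.

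The genes and lists were chosen with earlier results of these data known. Named are the 10 genes, the constitutive partners, the largest rise and fall of each list and a few fixed genes of the pathway, with the 5 genes of the closest profile to Nlrc5 and to Tap1. The others were named after their values were seen, among them RT1-A1, RT1-A2, RT1-CE6, RT1-M6-2, Mr1, Cd1d1, Fcgrt, Canx, Psmd14, Rfx5, Pomp, Lnpep, Rfxap, Col1a1, Vwf and Csf1r. One gene of the interferon signalling list is not reported here by name.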

Additional observations from a re-analysis of the deposited data

How the results depend on the processing

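The number of class I processing and immunoproteasome genes past the adjusted threshold was 8 under every alternative except that without a filter on low counts, where it was 10. There Tap2 and Psme1 were tested as well, with adjusted p-values of 0.0379 and 0.0264 over 17166 genes, from 13 and 6 counts at most in any library. The 8 log2 fold changes kept their direction and their side of the threshold in all 14 alternatives, leaving out each library in turn included, with the largest adjusted p-value at 7.8e-06 (Psme2, glmTreat). Among the related lists, the number of MHC class II genes past the threshold was 2, rising to 5 when low counts were not filtered and dropping to 1 when a mean count of 10 was required, because these settings test more or fewer genes. The counts of the heavy chain, loading and trimming, 20S core, 19S and interferon signalling lists moved by less than 1.5 times, and those of the class I-like genes and of the other activators and assembly factors were not recomputed. The 3 ratios of inducible to constitutive subunits kept their direction with no pseudocount and without any single library.

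Replicate numbers did not pair the libraries. Deviations from the group means correlated at 0.00284, -0.0693 and 0.0207 for same-numbered libraries. With the replicate number as a block 8 of the 8 tested genes passed, as without it. Low counts limit Tap2, Psme1 and the class II RT1 genes, with at most 13 counts in any library. They also limit Nlrc5 and Psme2, whose intervals are the widest of the 8.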
